A study of Sus scrofa with 9 samples.

Results

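Mitochondrial ribosomal proteins are encoded in the nucleus under symbols that start with MRPL, for the large subunit, or MRPS, for the small subunit. The gene IDs of the series were mapped to symbols, and every symbol that starts with MRPL or MRPS followed by a digit was taken. The ID table held 65 such symbols, and 63 of them had a row among the 30477 genes, 40 MRPL and 23 MRPS genes. MRPS2 and MRPS28 were not analysed here, nor were 12 further MRPL and MRPS symbols that RefSeq lists for the pig (MRPL1, MRPL14, MRPL23, MRPL27, MRPL32, MRPL41, MRPL42, MRPL53, MRPS16, MRPS17, MRPS21 and MRPS36).

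RNA was measured in porcine embryonic fibroblasts, connective tissue cells grown from thawed stocks. The groups were an untreated control at 0 h and cultures taken 48 h and 72 h after insulin was added, with 3 libraries per group that the submitters call biological replicates. Nothing in the labels says that the replicates came from separate embryos or cultures, so p-values measure the spread between these libraries, which may be technical. No untreated culture of 48 h or 72 h was analysed here, so insulin and time in culture cannot be told apart, and neither the insulin dose nor the medium was stated in the labels. The title of the series names genes of metabolism as its interest.

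The mitochondrial ribosome makes the few proteins that mitochondrial DNA encodes, all of them parts of the respiratory chain and the ATP synthase. Its RNA comes from mitochondrial DNA, while its proteins are made in the cytosol and imported, so that a full particle needs genes of both genomes. It has less RNA and more proteins than its bacterial relative: some of its proteins have a bacterial counterpart, and others are found in mitochondria alone. Fibroblasts in culture can draw on both glycolysis and respiration.

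The unit is FPKM, a fragment count scaled by gene length and library size, which is a level per length and can be compared between genes. A library's FPKM added up to 494369 ± 5639 in the control (SD, n = 3), 543945 ± 19344 after 48 h and 513986 ± 10455 after 72 h. The number of reads is unknown. All 11 fibroblast markers with a value had a mean of at least 1 FPKM at each time, led by COL1A1 at 8407 at 0 h. They summed to 22267 to 23226 FPKM at 0 h, 19727 to 21107 at 48 h and 22549 to 22953 at 72 h. Single markers moved in both directions: PDGFRA had means of 9.34, 26.9 and 36.4 at these times, and COL1A2 5680, 4276 and 4953. PTPRC and CD3E of blood cells and CDH5 of endothelium were listed at 0 in every library. The 5 blood and immune markers summed to 1.54 to 2.23 FPKM at 0 h, 3.97 to 5.14 at 48 h and 3.64 to 5.36 at 72 h, most of it CD14. The 5 epithelial markers with a value summed to 5.83 to 6.96, 12.6 to 13.9 and 9.68 to 10.7 FPKM, most of it KRT8, with EPCAM and CDH1 at or near 0. The 4 endothelial markers with a value summed to 0.56 to 0.99, 0.77 to 1.09 and 1.04 to 1.16, most of it PECAM1. Summed markers of pericytes and smooth muscle, all 6 with a value and 5 with a mean of at least 1, lay at 1615 to 1648 FPKM at 0 h, 976 to 1051 at 48 h and 907 to 1129 at 72 h, most of it DES, with RGS5 at or near 0. The 4 neural markers, most of it TUBB3, summed to 63.4 to 71.7, 135 to 162 and 128 to 149, with SOX10 near 0. The 4 skeletal muscle markers summed to 1.04 to 1.90, 1.75 to 2.04 and 1.47 to 1.65. The part of these marker shifts in the results below was not tested. In such bulk RNA, fewer cells of a type and less RNA per cell cannot be told apart.

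All 63 genes were expressed at every time. The lowest single value was 1.85 FPKM, so every gene passed the filter of at least 1 FPKM in at least 3 libraries through each group on its own, and all 63 were tested. At 0 h their median level was 23.3 FPKM, beside 11.2 for the 9260 tested genes that RefSeq lists as protein-coding. Levels spanned 43.4-fold, although the assembled ribosome holds a single copy of nearly all of these proteins. MRPL20, a homolog of a bacterial protein of the large subunit, led at 99.2 ± 3.52 FPKM (SD, n = 3), followed by MRPL40 at 83.4 ± 6.16, which has no bacterial counterpart. MRPS23 and MRPS11 of the small subunit stood at 62.9 ± 5.96 and 62.9 ± 6.24 and did not differ beyond their spread, nor did MRPL57 at 61.1 ± 26.8, MRPS25 at 55.9 ± 3.05 or MRPL43 at 52.8 ± 1.24 from their nearest neighbours in this order. These 7 genes were the ones above 50 FPKM.

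At the other end, 5 genes had a mean below 5 FPKM at 0 h. MRPL50 was lowest at 2.28 ± 0.211 FPKM, followed by MRPL47 at 3.803 ± 0.642. MRPS22 at 4.65 ± 0.0351, MRPS30 at 4.66 ± 0.0808 and MRPL58 at 4.95 ± 0.467 came next and overlapped each other. MRPL58 is a peptidyl-tRNA hydrolase of the release factor family that is built into the large subunit, and MRPS30 sits in the large subunit in spite of its symbol. The order of levels hardly moved with time: Spearman's rho over the 63 genes was 0.975 between the means of 0 h and 48 h, 0.966 between 0 h and 72 h and 0.991 between 48 h and 72 h, as a description of genes that share libraries and assigned lengths.

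Most of the genes had their highest level at 48 h. The mean at 48 h was the highest of the 3 times for 55 of the 63 genes, beside 35.0% of all 11063 genes tested. The mean at 0 h was the highest for MRPL44, MRPS14, MRPS25 and MRPS30 and tied with that at 48 h for MRPL47, and the mean at 72 h was the highest for MRPL3, MRPS6 and MRPS18C. A moderated F-test over the 3 times in limma was passed by 36 of the 63 genes (57.1%), at a Benjamini-Hochberg adjusted p below 0.05, beside 60.6% of all genes tested.

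**Figure D1:**
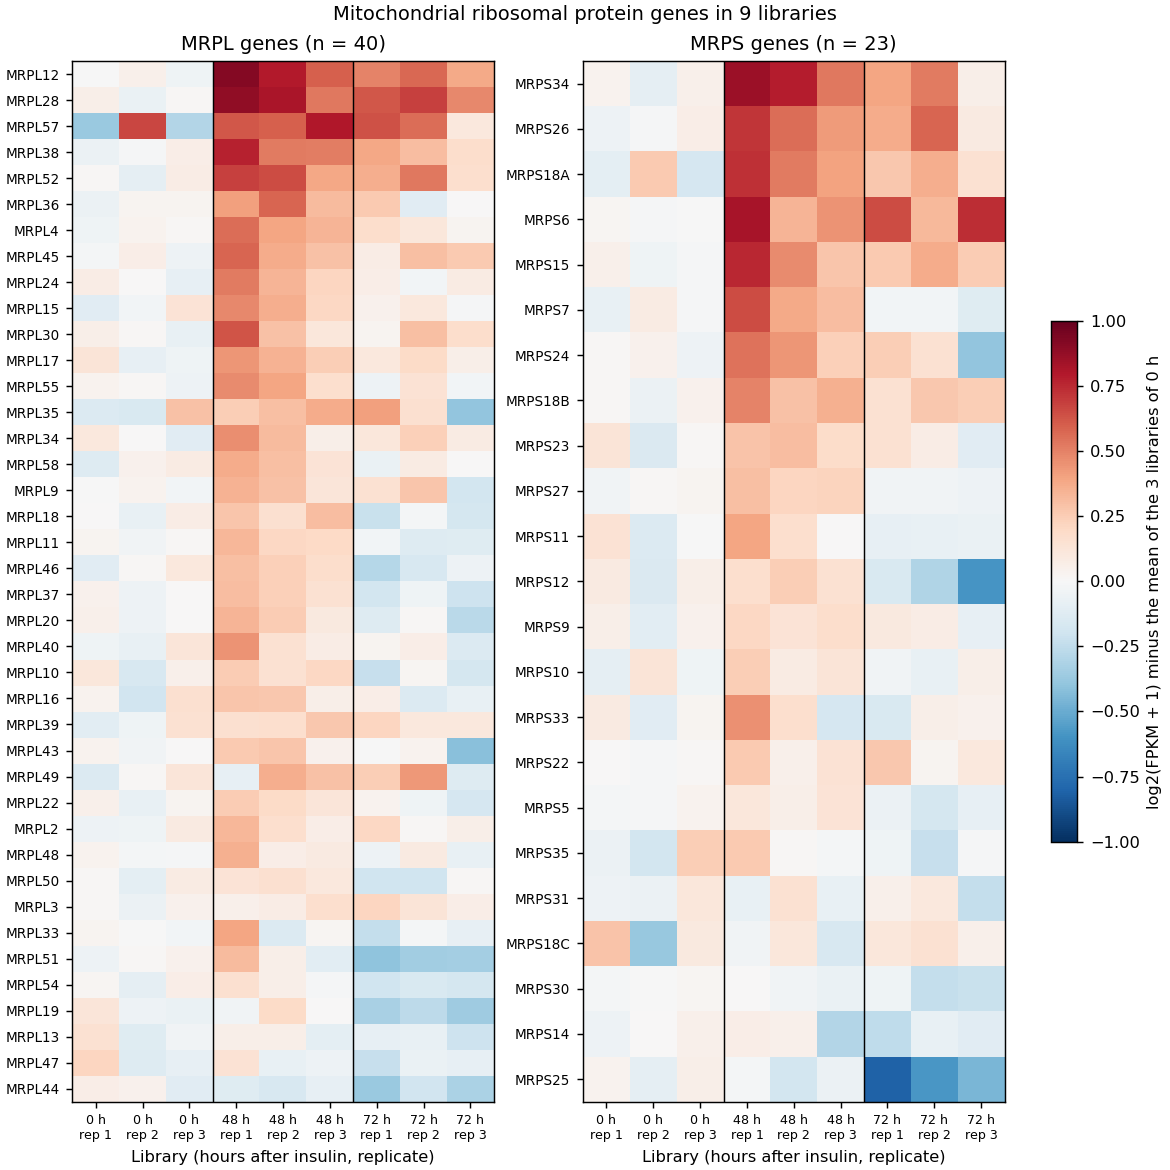
Each row is a gene and each column a library, and the colour gives log2(FPKM + 1) minus the gene's mean over the 3 libraries of 0 h (red above, blue below), with MRPL genes on the left and MRPS genes on the right in the order of their change at 48 h. Of the 63 genes, 57, 58 and 51 lay above their 0 h mean in 48 h replicates 1, 2 and 3, and 34, 37 and 27 in the 72 h replicates.

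The 9 libraries differed in how far the whole list stood from 0 h. On the log2(FPKM + 1) scale, the median difference of the 63 genes from their 0 h mean was 0.01, -0.04 and 0.02 in 0 h replicates 1 to 3, 0.33, 0.24 and 0.16 in the 48 h replicates, and 0.03, 0.06 and -0.05 in the 72 h replicates. All 3 libraries of 48 h lay above all the others. Replicate 1 of 48 h had the highest value of that group for 46 of the 63 genes and replicate 3 the lowest for 42. The FPKM sums of these libraries, 563656, 543186 and 524992, stood in the same order, as did the medians of the 48 tested cytosolic ribosomal proteins, 0.72, 0.57 and 0.43. The medians of the 62 nuclear genes of oxidative phosphorylation did so too, at 0.40, 0.32 and 0.21, while those of all genes tested were 0.03, 0.02 and 0.03. The part of this order in the changes at 48 h was not tested.

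The large and the small subunit moved side by side. Summed over genes, MRPL transcripts stood at 1161 ± 6.64, 1439 ± 97.9 and 1201 ± 76.0 FPKM (SD, n = 3) in the order 0 h, 48 h, 72 h, and MRPS transcripts at 592 ± 19.2, 732 ± 63.9 and 613 ± 19.1. The ratio of the 2 sums was 1.96 ± 0.068 at 0 h, 1.97 ± 0.041 at 48 h and 1.96 ± 0.065 at 72 h, so its means differed by less than the spread between replicates. The median gene had 25.9 FPKM for the large and 21.5 for the small subunit at 0 h, 31.1 and 31.3 at 48 h, and 26.4 and 25.4 at 72 h.

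The mean log2 level of MRPL genes exceeded that of MRPS genes by 0.158 ± 0.023 at 0 h, 0.187 ± 0.023 at 48 h and 0.159 ± 0.028 at 72 h. In single libraries the difference ran from 0.142 to 0.204, and the ranges of the 3 groups overlapped. Sorted by place in the ribosome, with MRPS18A and MRPS30 counted in the large subunit (42 large and 21 small), the difference was 0.023 ± 0.044, 0.053 ± 0.023 and 0.027 ± 0.026. Moving these 2 genes lowered the mean difference in all 3 groups, and the libraries of the groups overlapped in this sorting too (-0.003 to 0.074 at 0 h, 0.027 to 0.070 at 48 h and 0.008 to 0.056 at 72 h). The subunits are compared as values, since genes of a list are not replicates. With a trend of the values on gene span removed from each library, a setting chosen after seeing the data, the change of the difference by symbol from 0 h was -0.081 at 48 h and -0.053 at 72 h, beside 0.029 and 0.001 without it.

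**Figure D2:**
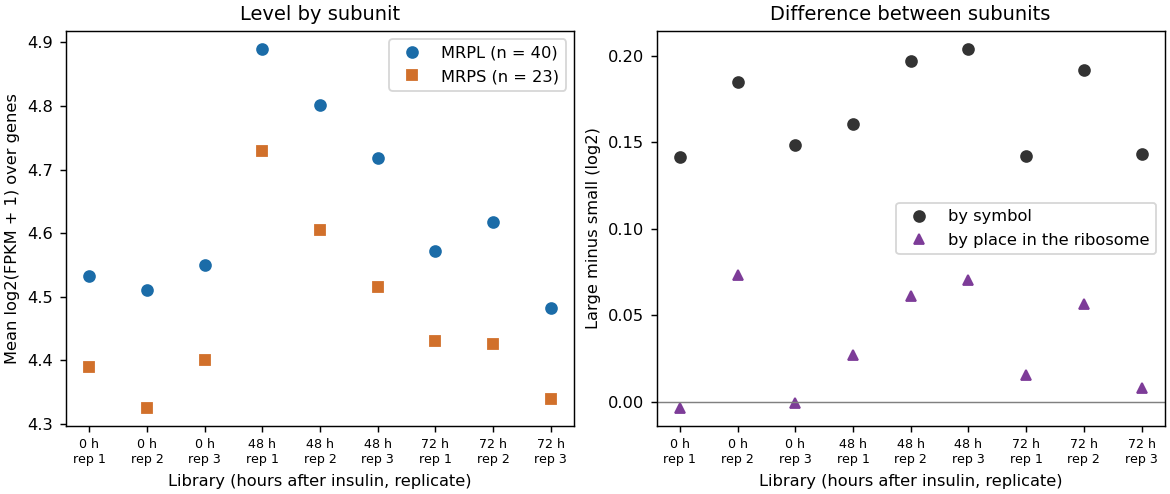
The left panel plots, for each of the 9 libraries, the mean log2(FPKM + 1) over the 40 MRPL genes (circles) and the 23 MRPS genes (squares), and the right panel their difference by symbol (circles) and by place in the ribosome (triangles). By symbol the difference stays between 0.142 and 0.204 in every library, while both means are highest in the 3 libraries of 48 h.

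At 48 h, 31 of the 63 genes were higher than at 0 h and 0 were lower in limma (adjusted p below 0.05, two-sided), beside 27.6% higher and 22.4% lower of all genes tested. In percent, 49.2% of the mitochondrial ribosomal protein genes were called, all of them higher, beside 49.9% of all genes tested called in either direction. At an unadjusted p below 0.05 the counts were 37 higher and 0 lower. The median log2 change was 0.23, with 58 of 63 genes above 0, beside a median of 0.02 over all genes tested. The 3 libraries of 48 h lay above the 3 of 0 h without overlap for 40 genes and below them for 0, beside 32.4% and 27.6% of all genes tested. By subunit, 21 of 40 MRPL genes (52.5%, median 0.24) and 10 of 23 MRPS genes (43.5%, median 0.19) were higher. By origin, 17 of 35 genes with a bacterial counterpart and 14 of 28 without one were higher.

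The count at 48 h depended on scaling, on library weights and on gene span. With libraries weighted by their fit, 47 genes were higher and 2 lower, beside 4223 and 3823 of all 11063 genes tested. With every library scaled to the same FPKM sum, 18 genes were higher and 1, MRPL44, was lower, beside 1960 and 3680 of 11063. That scaling moved the median of all genes tested by -0.12. The median of the 63 genes was 0.09, beside 0.23 as deposited, and 48 of them lay above 0, beside 58. Relative to the median of all genes they stood 0.20 higher, beside 0.21 as deposited. A single factor per library can hardly alter that distance, so it says nothing about scaling. With the trend on gene span removed, 18 were higher and 3 lower (MRPL44, MRPL51 and MRPL54), beside 2224 and 2161 of the 9306 tested genes with a span. The members then stood 0.10 above the median of those genes.

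Among proteins of the large subunit, MRPL12 had the highest change at 48 h. It forms the stalk that takes up translation factors, and its gene spans 1200458 to 1203817 of chromosome 12 (Sscrofa11.1, from RefSeq, as are all coordinates here). Its level was 42.1, 43.8 and 41.1 FPKM at 0 h, 80.8, 74.3 and 64.7 at 48 h, and 60.2, 63.7 and 55.3 at 72 h. The 3 groups did not overlap, with 48 h highest and 0 h lowest. The change from 0 h was 0.77 (SE 0.08) on the log2 scale at 48 h, a 1.73-fold ratio of means (limma, adjusted p = 4.52e-05).

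MRPL28, a homolog of a bacterial protein of the large subunit on chromosome 3 (41330412 to 41333520), had 30.7, 28.1 and 29.8 FPKM at 0 h, 55.6, 52.8 and 43.2 at 48 h, and 46.1, 48.1 and 41.6 at 72 h. Both treated groups lay above 0 h in every library and overlapped each other. It rose by 0.75 (SE 0.09) at 48 h on the log2 scale, 1.71-fold (limma, adjusted p = 0.000118).

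MRPL38 and MRPL52 have no bacterial counterpart. MRPL38 had 24.7, 25.5 and 26.9 FPKM at 0 h, 44.5, 37.2 and 37.0 at 48 h, and 33.9, 32.1 and 29.2 at 72 h, again with no overlap between the 3 groups. MRPL52 had 39.2, 36.3 and 40.9 FPKM at 0 h, 63.1, 61.4 and 51.1 at 48 h, and 50.3, 56.3 and 43.6 at 72 h, with treated libraries above all controls. Their log2 changes at 48 h were 0.60 (SE 0.08) and 0.58 (SE 0.10), with limma's adjusted p at 0.000236 and 0.00112.

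MRPL57, whose gene overlaps SKA3 on chromosome 11, is a case where 1 library decided the size of the change. It had 44.5, 92.0 and 46.8 FPKM at 0 h, 89.5, 88.0 and 101 at 48 h, and 90.4, 85.4 and 62.2 at 72 h. Replicate 2 of 0 h stood with the treated libraries, so the groups overlapped. Its log2 change at 48 h was 0.68 (SE 0.24, limma adjusted p = 0.0343), and 1.01 without that replicate (adjusted p = 0.00052). The call was lost without 0 h replicate 1 or 3 or any single 48 h replicate, at log2 changes of 0.49 to 0.71 and adjusted p of 0.0622 to 0.126. It was also lost with equal FPKM sums (0.55, adjusted p = 0.0846).

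Other MRPL genes rose less. MRPL4, a bacterial homolog that lines the peptide tunnel, rose by 0.43 on the log2 scale, MRPL45, which holds the ribosome to the inner membrane, by 0.42, and MRPL15 by 0.35. MRPL36, one of the smallest proteins of the particle and low in level, went from 5.12 ± 0.208 to 7.31 ± 0.803 FPKM (SD, n = 3), a log2 change of 0.44 (SE 0.10, limma adjusted p = 0.00584) that was 0.03 (adjusted p = 0.868) with the span trend removed. MRPL48, also low, had a log2 change of 0.17 (adjusted p = 0.131). The release factor relative MRPL58 had a log2 change of 0.27 (SE 0.09, adjusted p = 0.0278), whose call was lost without 0 h replicate 1 or 48 h replicate 1 or 2, at 0.20 to 0.25 (adjusted p 0.0819 to 0.113). MRPL20, the most abundant, had 103, 95.6 and 99.5 FPKM at 0 h and 126, 118 and 106 at 48 h. These groups did not overlap, but its call (log2 change 0.23, SE 0.08, adjusted p = 0.0386) was lost without any of 6 libraries, at 0.18 to 0.26 and adjusted p of 0.0537 to 0.126: each replicate of 0 h, 48 h replicates 1 and 2 and 72 h replicate 1. With equal FPKM sums the changes of MRPL58 and MRPL20 were 0.17 (adjusted p = 0.154) and 0.10 (adjusted p = 0.25).

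Among proteins of the small subunit, MRPS34 led. It is needed for a stable small subunit, has no bacterial counterpart and lies on chromosome 3 (40194078 to 40195316). Its level was 22.1, 20.2 and 22.3 FPKM at 0 h, 39.8, 37.7 and 31.5 at 48 h, and 28.6, 31.3 and 22.4 at 72 h. The 48 h libraries stood above all the others, and the lowest 72 h library lay just above the highest at 0 h. The log2 change at 48 h was 0.72 (SE 0.12, limma adjusted p = 0.000688).

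MRPS26, which is specific to mitochondria, had 33.7, 34.7 and 36.7 FPKM at 0 h and 58.0, 52.1 and 47.4 at 48 h, without overlap, for a log2 change of 0.57 (SE 0.11, adjusted p = 0.00216 in limma). The bacterial homologs MRPS6 and MRPS15 had log2 changes of 0.54 (SE 0.13) and 0.50 (SE 0.10), and MRPS7, a homolog of a protein that nucleates the head of the bacterial small subunit, 0.45 (SE 0.09). MRPS7 had 32.2, 36.1 and 33.8 FPKM at 0 h, 54.0, 44.6 and 42.4 at 48 h, and 33.3, 33.3 and 31.2 at 72 h, so that only the 48 h libraries stood apart. Its log2 change was 0.16 (adjusted p = 0.0825) with the span trend removed. MRPS27, an RNA-binding protein with pentatricopeptide repeats, showed the same shape at small scatter: 18.2, 18.8 and 19.1 FPKM, then 23.2, 21.8 and 22.0, then 18.2, 18.2 and 18.0. Its log2 change of 0.25 (SE 0.05, adjusted p = 0.0042) was 0.12 (adjusted p = 0.105) with equal FPKM sums and 0.14 (adjusted p = 0.0554) with libraries scaled to protein-coding genes.

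**Figure D3:**
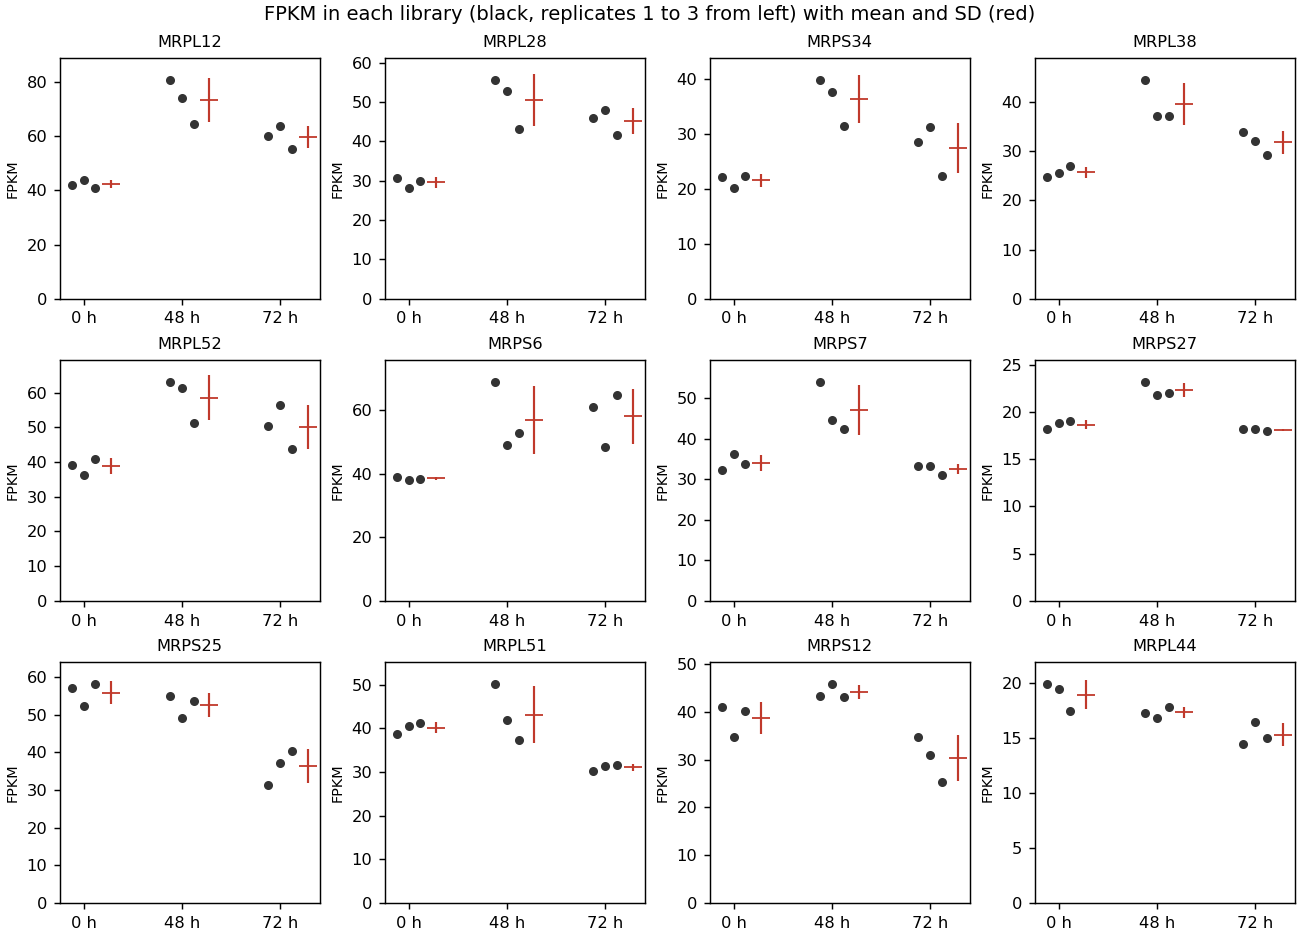
Each panel plots the FPKM of 1 gene in the 9 libraries (black points, replicates 1 to 3 from left within each time) with the mean and SD of each time (red), on a linear axis from 0. MRPS7 and MRPS27 stand apart at 48 h alone, MRPL28 and MRPS6 are above 0 h at both later times, and MRPS25, MRPL51, MRPS12 and MRPL44 are below 0 h at 72 h.

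MRPS18A, MRPS18B and MRPS18C are 3 paralogs related to the bacterial protein S18, the first in the large subunit and the others at different places of the small subunit. MRPS18C was counted here as the bacterial counterpart and the other two as specific to mitochondria. MRPS18A had 19.6, 25.3 and 18.6 FPKM at 0 h, 35.4, 30.5 and 28.02 at 48 h, and 25.4, 27.3 and 23.4 at 72 h, a log2 change of 0.55 (SE 0.12, adjusted p = 0.00326) at 48 h. MRPS18B had 29.0, 27.5 and 29.6, then 40.8, 35.3 and 36.9, then 32.0, 34.8 and 34.3, a log2 change of 0.38 (SE 0.07, adjusted p = 0.00112), or 0.16 (adjusted p = 0.051) with the span trend removed. Both stood above all their 0 h libraries at 48 h, and MRPS18B at 72 h as well. MRPS18C had 11.7, 6.99 and 10.1, then 9.14, 10.3 and 8.28, then 10.2, 10.6 and 9.78, with all groups overlapping and log2 changes of -0.03 (SE 0.14, limma adjusted p = 0.888) at 48 h and 0.11 (SE 0.14, adjusted p = 0.572) at 72 h. The differences among the 3 paralogs were not tested.

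The lowest changes at 48 h were those of MRPL44 (-0.12), MRPS25 (-0.09), MRPS14 (-0.06), MRPS30 (-0.03) and MRPS18C, the 5 genes below 0, and none of them passed the test (limma, adjusted p 0.184 to 0.888). Next came MRPS31 and MRPL47 at 0.00 each and MRPL13 at 0.01.

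**Figure D4:**
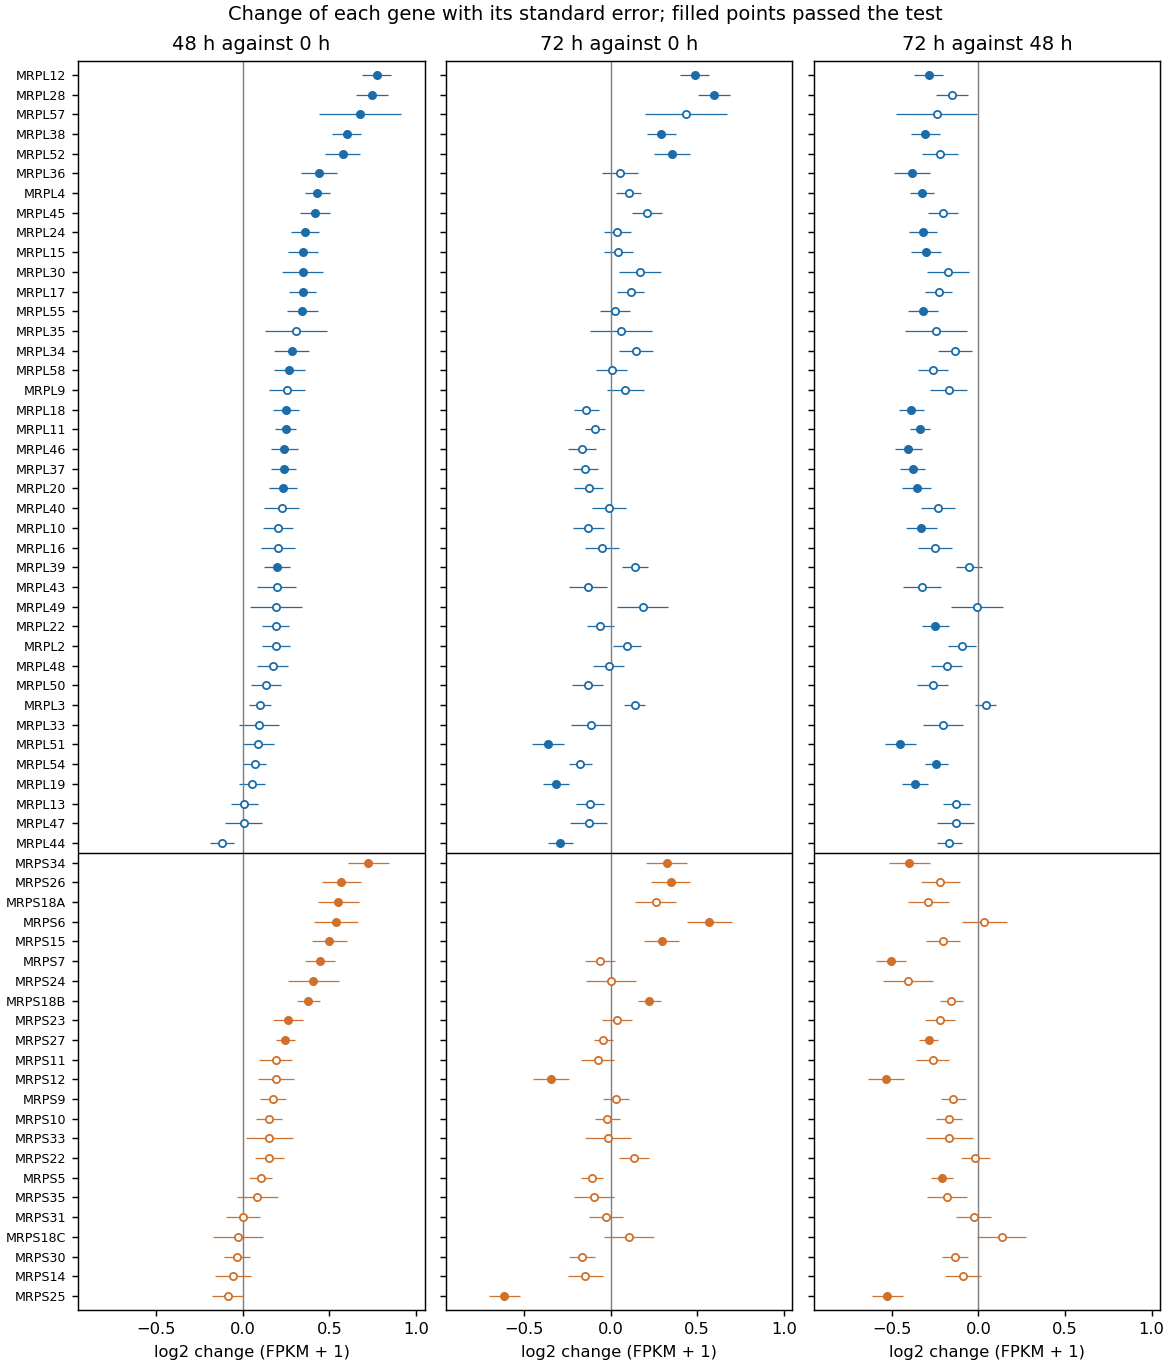
Each row is a gene, MRPL above the line and MRPS below, and the panels plot its log2 change with its standard error from 0 h to 48 h, from 0 h to 72 h and from 48 h to 72 h, with filled points for an adjusted p below 0.05 in limma. The first panel holds 31 filled points above 0 and 0 below, the second 9 and 5, and the third 0 and 23; the panels share libraries in pairs.

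At 72 h, 9 of the 63 genes were higher and 5 lower than at 0 h in limma (adjusted p below 0.05), beside 23.0% and 22.5% of all genes tested. These 14 calls stand beside 45.5% of all genes called in either direction. At an unadjusted p below 0.05 the counts were 11 and 7. The 0 h libraries are the same as in the comparison at 48 h, so the 2 comparisons are not independent. The median log2 change was 0.00 and 32 genes were above 0, beside a median of -0.01 over all genes tested. Groups did not overlap for 12 genes above and 9 below 0 h, beside 28.1% and 30.4% of all genes. By subunit, 4 MRPL genes were higher and 3 lower, and 5 MRPS genes were higher and 2 lower. With equal FPKM sums 8 were higher and 12 lower, beside 2158 and 2911 of all 11063 genes tested. With the span trend removed these were 7 and 12, beside 2351 and 2219 of 9306. Without 0 h replicate 1 the higher count was 5, beside 2146 of 11063, and without 72 h replicate 2 it was 4, beside 2228.

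The higher genes were MRPL12, MRPL28, MRPL38, MRPL52, MRPS6, MRPS15, MRPS18B, MRPS26 and MRPS34. MRPL28 had the largest log2 change at 0.60 (SE 0.09, limma adjusted p = 0.000403), then MRPS6 at 0.57 (SE 0.13, adjusted p = 0.00405) and MRPL12 at 0.48 (SE 0.08, adjusted p = 0.000751). These 3 passed the test under each of the 20 alternatives tried, none of which took overlap with other genes into account. The alternatives are not independent checks, since leaving out a 48 h library cannot alter a log2 change between 0 h and 72 h. The gene of MRPL28 overlaps TMEM8A. MRPS6, whose gene spans 68868 bases of chromosome 13 and overlaps SLC5A3, had 39.2, 38.2 and 38.4 FPKM at 0 h, 68.9, 49.0 and 53.0 at 48 h, and 61.2, 48.5 and 64.9 at 72 h. It scattered within both treated groups, which overlapped each other and lay above every control.

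The other 6 genes lost their call at 72 h under at least 1 alternative. MRPL38 (log2 change 0.29) did so without 0 h replicate 1 or 72 h replicate 1, at 0.25 to 0.27 (adjusted p 0.0548 to 0.0606), and MRPL52 (0.35) without 0 h replicate 2 or 72 h replicate 2, at 0.27 to 0.31 (adjusted p 0.0612 to 0.0621). MRPS18B (0.22) lost it without 0 h replicate 2 or 72 h replicate 2 or 3, at 0.19 to 0.21 (adjusted p 0.051 to 0.0773). MRPS26 (0.35) lost it without 0 h or 72 h replicate 1 or 2, at 0.23 to 0.34 (adjusted p 0.0692 to 0.101). MRPS15 (0.29) lost it without any single 0 h or 72 h replicate, at 0.26 to 0.32 (adjusted p 0.0505 to 0.1). MRPS34 (0.32) lost it without any 0 h replicate, 48 h replicate 2 or 72 h replicate 1 or 2, at 0.23 to 0.35 (limma adjusted p 0.0599 to 0.164). Settings other than a left-out library ended some of these calls too. Without a filter on low values, MRPS15, MRPS26 and MRPS34 lost theirs. With the span trend removed, MRPS18B, MRPS26 and MRPS34 did, and with equal FPKM sums MRPS34 did.

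The 5 lower genes were MRPS25, MRPL51, MRPS12, MRPL19 and MRPL44. MRPS25, a small subunit protein with no bacterial counterpart, had the lowest change. Its gene lies on chromosome 13 (69441100 to 69465912) and overlaps NR2C2. It had 57.1, 52.4 and 58.2 FPKM at 0 h, 55.0, 49.0 and 53.5 at 48 h, and 31.4, 37.1 and 40.4 at 72 h. The 0 h and 48 h libraries overlapped, and every 72 h library lay below both. It fell by 0.62 (SE 0.09) on the log2 scale, to 0.649 times the level of 0 h (limma, adjusted p = 0.000238).

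MRPL51 and MRPL44 are large subunit proteins without a bacterial counterpart, and MRPL44 carries a fold related to ribonuclease III. MRPL51 had 38.8, 40.6 and 41.3 FPKM at 0 h, 50.2, 41.9 and 37.4 at 48 h, and 30.2, 31.4 and 31.6 at 72 h. It fell by 0.36 (SE 0.09, limma adjusted p = 0.00763), with its 72 h libraries below all others. MRPL44 had 19.9, 19.5 and 17.5, then 17.3, 16.8 and 17.9, then 14.4, 16.5 and 15.0, and fell by 0.29 (SE 0.07, limma adjusted p = 0.0071). Its 0 h and 48 h libraries overlapped, with those of 72 h below both.

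MRPL19 and MRPS12 have bacterial homologs, that of MRPS12 at the decoding centre. RefSeq lists the pig gene under the symbol MRPS12 as a long non-coding RNA, the only one of the 63 that it does not list as protein-coding, so its values may not be those of the protein's messenger RNA. MRPL19 had 43.1, 38.3 and 37.7 FPKM at 0 h, 38.7, 45.3 and 39.8 at 48 h, and 31.5, 32.9 and 30.7 at 72 h, a fall of 0.31 (SE 0.08, adjusted p = 0.00601). MRPS12 had 41.0, 34.8 and 40.1, then 43.4, 45.8 and 43.1, then 34.7, 31.1 and 25.3. All its 72 h libraries were below the lowest at 0 h, the highest of them by little. Its log2 change was -0.35 (SE 0.10, limma adjusted p = 0.0188). Its call was lost without 0 h replicate 1 or 3 or 72 h replicate 3, at -0.32 to -0.23 (adjusted p 0.0534 to 0.0701). Without a filter on low values it was lost as well. MRPS25, MRPL51, MRPL44 and MRPL19 passed the test under each of the 20 alternatives.

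Between 48 h and 72 h, 23 of the 63 genes were lower at 72 h and 0 were higher in limma (adjusted p below 0.05), beside 16.3% lower, 9.17% higher and 25.4% in either direction of all genes tested. The libraries are those of the comparisons above. At an unadjusted p below 0.05, 37 were lower and 0 higher. The median log2 change was -0.23, beside -0.03 over all genes tested, and 60 of 63 genes lay below 0, all but MRPL3 (0.04), MRPS6 (0.03) and MRPS18C (0.13). The libraries of 72 h lay below those of 48 h without overlap for 35 genes, beside 23.9% of all genes. By subunit, 17 of 40 MRPL genes (42.5%) and 6 of 23 MRPS genes (26.1%) were lower; the difference between these shares was not tested. The count of lower genes was 14 without 48 h replicate 1, 15 without 48 h replicate 2 and 36 without 48 h replicate 3. It was 14 without 72 h replicate 3. Over all 11063 genes tested, the lower ones numbered 1274, 1138, 2196 and 1240 in this order. Without a filter on low values 15 of the 63 were lower, beside 1393 of 19679 genes. With the span trend removed it was 12, beside 1145 of 9306. With library weights 44 were lower and 1 higher, beside 3348 and 2408 of 11063.

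The lowest changes from 48 h to 72 h were those of MRPS12 (-0.54, SE 0.10, limma adjusted p = 0.00464), MRPS25 (-0.53, SE 0.09, adjusted p = 0.00217), MRPS7 (-0.51, SE 0.09, adjusted p = 0.00235), MRPL51 (-0.45, SE 0.09, adjusted p = 0.00556) and MRPL46 (-0.41, SE 0.08, adjusted p = 0.00472). These 5 passed the test under each of the 20 alternatives, as did MRPL4, MRPL18, MRPL19, MRPL20, MRPL37 and MRPS27. At 72 h MRPS7, MRPS27 and MRPL20 were within 0.13 of their 0 h level on the log2 scale (-0.06, -0.04 and -0.13, not past the test). MRPL28, in contrast, had a log2 change of -0.15 (SE 0.09, adjusted p = 0.25) from 48 h to 72 h, and MRPS6 of 0.03 (SE 0.13, adjusted p = 0.864).

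The counts for other lists stand beside the same shares of all genes tested, 27.6% higher and 22.4% lower at 48 h and 23.0% and 22.5% at 72 h. Proteins of the same ribosome under other symbols were 5 tested genes: DAP3, a GTP-binding protein of the small subunit, AURKAIP1, CHCHD1, PTCD3 and GADD45GIP1. At 48 h, 4 of the 5 were higher in limma (AURKAIP1 0.58, CHCHD1 0.43, DAP3 0.37 and GADD45GIP1 0.30) and PTCD3 was at -0.11 (adjusted p = 0.182). At 72 h 0 were higher, with 1 at an unadjusted p below 0.05, and PTCD3, a protein with pentatricopeptide repeats, fell by 0.38 (SE 0.07, adjusted p = 0.000987). From 48 h to 72 h, 4 of the 5 were lower, beside 16.3% of all genes tested.

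Factors that build the mitochondrial ribosome or modify its RNA had 24 tested genes of 29 listed. At 48 h 10 were higher and 2 lower, with a median log2 change of 0.17. The highest were MPV17L2 at 0.56 and MALSU1 at 0.45, both assembly factors of the large subunit, and the 2 lower were METTL15 at -0.52 and NSUN4 at -0.30, RNA methyltransferases. At 72 h 3 were higher (RPUSD3 0.45, MRM1 0.37 and RPUSD4 0.26) and 1 lower (FASTKD2 -0.38), with a median of -0.03.

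Of 17 tested factors that run translation on the ribosome, 5 were higher and 4 lower at 48 h, near the shares over all genes, with a median of 0.00. SLIRP, which stabilises mitochondrial messenger RNA, rose by 0.70 (SE 0.13, limma adjusted p = 0.00185), and TUFM, the elongation factor that brings in aminoacyl-tRNA, by 0.44 (SE 0.07, adjusted p = 0.000634). The release factor relative MTRFR fell by 0.78 (SE 0.13, adjusted p = 0.000872) and the elongation factor GFM1 by 0.49 (SE 0.07, adjusted p = 0.000413). At 72 h 5 were higher and 3 lower, with MTRFR at -0.67, GFM1 at -0.45, SLIRP at 0.51 and MTRES1 at 0.28.

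Of 18 mitochondrial aminoacyl-tRNA synthetases and related enzymes, 1 was higher and 4 lower at 48 h, and 1 higher and 5 lower at 72 h, with median log2 changes of 0.00 and -0.14. AARS2, which loads alanine, was lowest at -0.51 (SE 0.08) and -0.80 (SE 0.08), and CARS2, which loads cysteine, highest at 48 h at 0.66 (SE 0.09). IARS2, for isoleucine, was highest at 72 h at 0.27 (SE 0.06). Of 8 tested genes that copy and transcribe mitochondrial DNA, 0 were higher and 0 lower at 48 h, with 0 in each direction at an unadjusted p below 0.05. Their range ran from -0.14 for TEFM to 0.14 for POLRMT, the mitochondrial RNA polymerase, with TFAM, which packs mitochondrial DNA, at -0.12. At 72 h 2 were lower: POLG, the DNA polymerase, at -0.35 (SE 0.06), and TWNK, the helicase, at -0.31 (SE 0.08). Of 7 regulators of mitochondrial biogenesis, 0 were higher and 3 lower at 48 h, with 0 higher at an unadjusted p below 0.05. The 3 were NRF1 (-0.42, SE 0.08) and GABPA (-0.31, SE 0.10), activators of nuclear genes for mitochondrial proteins, and MYC (-0.34, SE 0.07). At 72 h NRF1 had -0.46 (SE 0.08) and GABPA -0.27 (SE 0.10), both lower, and MYC 0.08 (adjusted p = 0.399). From 48 h to 72 h MYC rose by 0.42 (SE 0.07, limma adjusted p = 0.00297).

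The products of this ribosome are the 13 proteins of mitochondrial DNA. Their transcripts were higher for 5 and lower for 1 gene at 48 h, with a median log2 change of 0.21, and for 0 and 4 genes at 72 h, with a median of -0.11; at 72 h 1 was higher at an unadjusted p below 0.05. ATP8, a short gene of the ATP synthase, had the highest change at 1.15 (SE 0.35, limma adjusted p = 0.0195) at 48 h and 0.92 (SE 0.35, adjusted p = 0.0528) at 72 h. Its mean at 0 h was 21.1 FPKM, beside 4498 for ATP6. It had 25.1, 24.3 and 14.0 FPKM at 0 h and 51.9, 80.0 and 24.1 at 48 h, so these groups overlapped. How reads were assigned to such genes was not tested. COX3 had 0.39 (SE 0.08, limma adjusted p = 0.0028) at 48 h, and ND4L -0.24 (SE 0.09, adjusted p = 0.0437) at 48 h and -0.45 (SE 0.09, adjusted p = 0.00201) at 72 h. The nuclear genes of oxidative phosphorylation were listed mainly by the start of their symbols, so not all of them encode partners of these 13 proteins. They were higher for 49 and lower for 0 of 62 at 48 h (median 0.29, with 53 and 0 at an unadjusted p below 0.05), and for 15 and 4 at 72 h (median 0.05). NDUFA4L2 was highest at both times, at 1.21 (SE 0.27) and 1.88 (SE 0.27), and NDUFS1 of complex I had -0.11 (adjusted p = 0.164) and -0.20 (adjusted p = 0.0178).

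The cytosolic ribosome offers a second set of ribosomal proteins in the same libraries. All 48 tested of 50 cytosolic ribosomal protein genes were higher at 48 h, with a median log2 change of 0.57, and 46 at 72 h, with a median of 0.37 and 0 lower at either time, adjusted or not. RPS20 was highest at 48 h at 1.33 (SE 0.19) and RPL4 lowest at 0.32 (SE 0.07). From 48 h to 72 h, 5 of the 48 (10.4%) were lower, beside 23 of the 63 mitochondrial ribosomal protein genes (36.5%) and 16.3% of all genes tested. The difference between the 2 sets was not tested. Summed FPKM of the cytosolic set was 20.8 ± 0.399 times that of the mitochondrial set at 0 h, 25.2 ± 0.625 at 48 h and 26.6 ± 1.27 at 72 h (SD, n = 3), with no overlap between 0 h and either later time. The mitochondrial set made up 0.354% ± 0.0009, 0.399% ± 0.0155 and 0.353% ± 0.013 of the FPKM sum at these times.

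**Figure D5:**
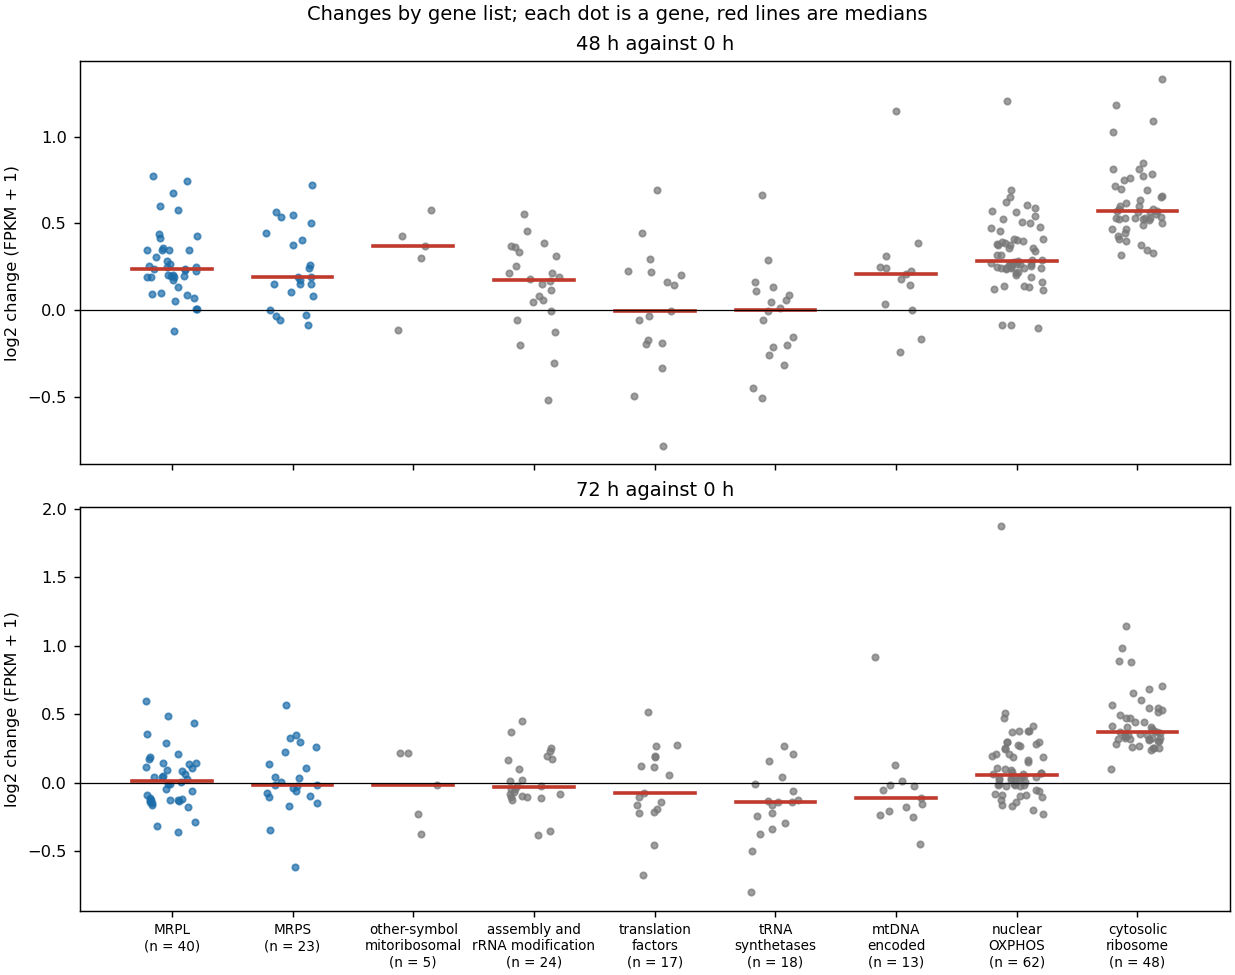
Each dot is a tested gene, placed by list on the horizontal axis and by its log2 change from 0 h on the vertical axis (48 h above, 72 h below), and red lines are medians. At 48 h the medians are 0.24 for MRPL and 0.19 for MRPS genes, beside 0.57 for cytosolic ribosomal proteins and 0.29 for nuclear genes of oxidative phosphorylation.

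The 63 genes lie on 17 chromosomes. MRPL46 and MRPS11 are next to each other on chromosome 1 (191321990 to 191331320 and 191310547 to 191321951). MRPL46 passed the test at 48 h (log2 change 0.24), a call lost without 0 h or 48 h replicate 1 or 2, at 0.18 to 0.24 (limma adjusted p 0.0629 to 0.112). That call was also lost with no filter, equal FPKM sums, quantile normalization, libraries scaled to protein-coding genes and the span trend removed. MRPS11 had 0.19 (adjusted p = 0.127), and the difference between the pair was not tested. Gene spans, introns included, ran from 984 bases for MRPL57 to 225452 for MRPS22, with a median of 7401. Over the 63 genes, Spearman's rho of span with the log2 change was -0.39 at 48 h and -0.17 at 72 h, and that of the 0 h level with the change 0.22 and 0.06. These are descriptions over genes that share libraries.

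Overlap with other genes limits some values, since no source used here says whether counting took strand into account. RefSeq places 21 of the 63 genes over another gene, 16 of them over a protein-coding one. Of these 16, 7 were higher at 48 h (median log2 change 0.22), and of the other 47, 24 (median 0.23), beside 27.6% of all genes tested. At 72 h, 4 of the 16 were higher and 2 lower (median 0.10). Of the other 47, 5 were higher and 3 lower at 72 h (median -0.01), beside 23.0% and 22.5% of all genes tested. From 48 h to 72 h, 4 of the 16 and 19 of the other 47 were lower, beside 16.3%. The differences between these classes were not tested. NR2C2, which overlaps MRPS25, had a log2 change of -0.94 (adjusted p = 0.0017) at 48 h and -0.45 (adjusted p = 0.0635) at 72 h, from a mean of 9.08 FPKM at 0 h. SKA3, which overlaps MRPL57, had -0.59 and -1.13, and NCAPD2, within 1 kb of MRPL51 without overlap, had -0.93 and -1.81. TMEM8A, which overlaps MRPL28, and SLC5A3, which overlaps MRPS6, had no values under these symbols, so their changes are unknown. MRPL49 lies over FAU, which encodes a cytosolic ribosomal protein (1.09 at 48 h), and over SYVN1 (-0.42), and its own log2 change was 0.19 (SE 0.15, limma adjusted p = 0.31). The part of these overlaps in the values of the mitochondrial ribosomal protein genes was not tested.

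The spread between replicates sets what could be seen. Standard errors of the log2 changes of these genes had a median of 0.089, with a range from 0.055 for MRPS27 to 0.24 for MRPL57. The median coefficient of variation of FPKM was 5.51% at 0 h, 9.51% at 48 h and 7.63% at 72 h. It exceeded 20% for MRPL57 and MRPS18C at 0 h, MRPS33 at 48 h and MRPL35, MRPL49 and MRPS24 at 72 h. For these 6 genes a change of the size of the list's median at 48 h, 0.23, was not detectable at this scatter. The limit was not confined to them. At 48 h MRPL9 (0.26, SE 0.11, limma adjusted p = 0.0666) and MRPL40 (0.22, SE 0.10, adjusted p = 0.0839) did not pass. MRPL11 (0.25, SE 0.06, adjusted p = 0.00598) did. A gene without a call may thus have changed by that much.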

How the data were processed

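RNA of porcine embryonic fibroblasts was depleted of ribosomal RNA and made into 9 libraries with the NEBNext Ultra RNA kit, per the labels' protocols. The authors deposited FPKM, rounded to 2 decimals, per the file headers. Per the submitters' processing notes, the build was Sscrofa11.1 and the tools included RSEM 1.2.28, featureCounts 2.0.2, DESeq2 and HISAT2 2.1.0, with no role or order. Which of them made the FPKM, and from which annotation, was not stated. FPKM are scaled within a library, so a few abundant transcripts that rise lower the others.

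Symbols and coordinates came from tables of gene IDs and of RefSeq (Sscrofa11.1) matched by symbol. Of 30477 genes, 14864 had a symbol. All genes reaching 1 FPKM in 3 or more libraries, with or without a symbol, were tested, 11063 in number. The test was on log2(FPKM + 1), which understates changes of low genes. A single model of group was fitted to all 9 libraries with limma 3.58.1 in R 4.3.3, and the prior variance followed the mean level. The groups and replicate numbers came from the labels. P-values were two-sided and adjusted by Benjamini-Hochberg over all genes tested; SE is the moderated standard error. The fit was tested on simulated data. The sides of the ribosome and bacterial counterparts were assigned from general knowledge.

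The genes, lists and tests were chosen with earlier results of these data known. Named by rule were the 8 highest and 8 lowest changes against 0 h and 5 and 5 for 72 h against 48 h, the 6 highest and 6 lowest levels, every gene of a direction with 5 or fewer calls, MRPL12, MRPL44, MRPL58, MRPS18A, MRPS18B, MRPS18C, MRPS27, MRPS30 and MRPS34, and the 2 highest and 2 lowest of each other list. Some items that the rule names are not reported here. Other genes were named after their values were seen. The alternatives are listed in the closing section. Protein and promoter sequences were not used here.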

Additional observations from a re-analysis of the deposited data

How the results depend on the processing

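The calls of the 63 genes, and not those of the other lists, were recomputed with a pseudocount of 0.1, no filter, a mean FPKM of at least 5, equal FPKM sums, quantile normalization, median centring, libraries scaled to protein-coding genes, library weights, a replicate block and each library left out. A planned trend on coding length was not run, since protein lengths were not used here. A trend on gene span, and the same genes without it, were added after seeing the data. Genes higher at 48 h, 31 as reported, numbered 18 with equal sums and 18 scaled to protein-coding genes. They numbered 47 with library weights and 18 with the span trend removed. Over all genes tested, higher ones numbered 1960, 2157 and 4223 of 11063 and 2224 of 9306, beside 3048 of 11063 as reported. Lower ones of the 63, 0 as reported, numbered 1, 1, 2 and 3 under these settings, and 1 with quantile normalization. Over all genes, lower ones numbered 3680, 3366 and 3823 of 11063 and 2161 of 9306, and 2747 of 11063 with quantile normalization. At 72 h, lower genes, 5 as reported, numbered 12, 9, 9 and 12 under the same 4 settings. Over all genes they numbered 2911, 2843 and 2961 of 11063 and 2219 of 9306, beside 2487 of 11063 as reported. For 72 h against 48 h, 1 gene was higher with library weights, beside 2408 of 11063. Lower ones, 23 as reported, numbered 15 without a filter, 44 with library weights and 12 with the span trend removed. Over all genes, lower ones numbered 1393 of 19679, 3348 of 11063 and 1145 of 9306 in this order, beside 1800 of 11063 as reported. The large minus small difference changed by -0.081 at 48 h and -0.053 at 72 h with the span trend removed. With the span trend removed, 42 of 63 changes at 48 h were above 0, beside 58. Those that turned among genes called with or without it were MRPL11 at -0.067, MRPL17 at -0.024, MRPL20 at -0.016, MRPL34 at -0.153, MRPL51 at -0.30 and MRPL54 at -0.239; the cause was not tested. Leaving out single libraries gave 21 to 36 higher and 0 lower genes at 48 h, beside 2503 to 3087 and 1939 to 2683 of all 11063. At 72 h it gave 4 to 10 higher and 4 to 6 lower, beside 2112 to 2724 and 1985 to 2713. For 72 h against 48 h it gave 0 higher and 14 to 36 lower, beside 589 to 1497 and 1138 to 2196. The F-test was passed by 30 to 42, beside 5547 to 7202. The large minus small difference changed by 0.020 to 0.042 at 48 h and by -0.016 to 0.014 at 72 h. Correlations of deviations from the group means ran from -0.07 to 0.19 between same-numbered libraries and from -0.18 to 0.17 between the others. These ranges overlap, so whether replicate numbers pair the libraries was not settled. With a replicate block, 32 genes were higher at 48 h and 27 lower for 72 h against 48 h, beside 3081 and 1937 of 11063. Calls that held under all 20 alternatives were 12 of 31 at 48 h (MRPL4, MRPL12, MRPL15, MRPL28, MRPL38, MRPL45, MRPL52, MRPS6, MRPS15, MRPS18A, MRPS26 and MRPS34), 3 of 9 higher and 4 of 5 lower at 72 h, and 11 of 23 for 72 h against 48 h. The 20 alternatives are not independent checks, since leaving out a library of the group outside a comparison cannot alter its log2 change. With 3 libraries per group and depth unknown, no counting error could be given.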
